A study of Mus musculus with 6 samples.

Results

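The 4 mouse Id genes, Id1, Id2, Id3 and Id4, were examined in sorted parietal cells, which secrete gastric acid. They were taken from the deposited expression table by gene symbol, and all 4 were found among its 23284 genes. The table holds 6 libraries: 3 from control mice and 3 from mice that express noggin, a secreted protein that binds bone morphogenetic proteins (BMPs) and keeps them from their receptors. Per the labels, the control genotype is Transgenic-Tom and the noggin genotype Transgenic-Tom-nog. The noggin transgene (H+/K+-Nog) and the Cre transgene (H+/K+-Cre) are both driven by the promoter of the H+/K+ ATPase, the proton pump of parietal cells, and Cre switches on the red fluorescent protein of the Rosa26-tdTomato allele. Fluorescent cells were purified by flow cytometry. The design text spells out the noggin cross only, and the sources used here do not give the full alleles of the controls. The libraries are labelled as biological replicates. Age, sex and the number of animals behind a library are not stated, so a p-value covers the spread among the libraries as labelled. Per its title, the study concerns the regulation of parietal cells by BMP signalling.

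Id proteins have a helix-loop-helix domain but no basic DNA-binding region. They pair with E proteins and related basic helix-loop-helix (bHLH) factors and so keep those factors off DNA. BMP receptors phosphorylate Smad1, Smad5 and Smad9, which with Smad4 induce Id genes in many cell types. For that reason Id transcripts are widely used as a readout of BMP signalling. Growth factors and other signals also induce them.

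The 4 genes lie on different chromosomes in mm10. Id1 is on chromosome 2 (152736251 to 152737410, plus strand), Id2 on chromosome 12 (25093799 to 25097140, minus strand), Id3 on chromosome 4 (136143497 to 136145755, plus strand) and Id4 on chromosome 13 (48261228 to 48266026, plus strand). Their coding sequences share a stretch that encodes part of the helix-loop-helix domain. It is shown for the family resemblance, and because it bears on how far short reads tell the transcripts apart. It was chosen as the most alike stretch of its length, so its identity is a description. It was read from the GENCODE M21 transcripts (GRCm38), 90 bases each, within 1 exon, with capitals at the 52 positions that are the same in all 4 genes.
Id1 (chr2:152736551-152736640, plus strand): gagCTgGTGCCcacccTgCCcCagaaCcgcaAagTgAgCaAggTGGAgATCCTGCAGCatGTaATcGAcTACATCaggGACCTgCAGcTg
Id2 (chr12:25095780-25095869, minus strand): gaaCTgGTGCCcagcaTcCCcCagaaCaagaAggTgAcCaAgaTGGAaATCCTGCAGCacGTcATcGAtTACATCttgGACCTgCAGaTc
Id3 (chr4:136144035-136144124, plus strand): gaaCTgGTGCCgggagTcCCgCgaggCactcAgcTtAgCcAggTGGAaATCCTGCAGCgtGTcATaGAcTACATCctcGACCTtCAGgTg
Id4 (chr13:48261726-48261815, plus strand): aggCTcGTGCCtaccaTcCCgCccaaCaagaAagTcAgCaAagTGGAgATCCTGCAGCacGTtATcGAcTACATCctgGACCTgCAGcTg

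In this stretch Id1 matched Id2 and Id4 at 72 bases each, and Id2 matched Id4 at 70. Id3 was the most distant, with 61, 64 and 61 bases in common with Id1, Id2 and Id4. Over whole transcripts the longest run shared by any pair was 19 bases (Id2 and Id3), shorter than the 50 base reads. No window of 50 bases was shared between Id genes. With other genes, Id2 shared 8 of its 1221 windows (with Gm6175) and Id4 shared 79 of its 3800 windows with Gm49291, a noncoding gene that overlaps its start on the opposite strand. Id1 and Id3 shared 0. No source used here says that strand was kept, so reads from the overlap at Id4 cannot be assigned to a strand.

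RefSeq promoter windows, from 250 bases before to 50 bases after the annotated start (GRCm38.p6), were matched for 3 of the 4 genes, Id2, Id3 and Id4. They were searched on both strands for 5 motifs: GGCGCC, a GC-rich element that BMP-activated Smads can bind, GTCT, the short Smad element, CANNTG, the E box of bHLH factors, TGACG, a short form of the cAMP response element, and CCAAT, the CCAAT box. GGCGCC occurred once in Id2, at -231 from the start, once in Id4, at -148, and not in Id3, against 11.9% of all 32851 promoter windows with at least 1. TGACG occurred once in Id3 (-170) and once in Id4 (-229), against 20.8% of windows. GTCT, which 88.0% of windows hold, occurred once in Id2, 3 times in Id3 and 0 times in Id4. CANNTG occurred once in Id2 and not in Id3 or Id4, against 72.3% of windows. CCAAT occurred 3 times in Id2, 2 times in Id4 and not in Id3, against 37.4%. None of the 5 was found in all 3 windows. The windows of Id2 and Id3 lie within the GENCODE spans of these genes, which begin further upstream than the RefSeq starts used here. The bases before the start that lie outside annotated exons of the same gene are shown for the windows with GGCGCC, which is in capitals. For Id2 these bases are outside its exons but inside the gene as GENCODE draws it. For Id4 they lie inside the spans of the noncoding genes Gm49291 and A330033J07Rik on the opposite strand, whose exons were not checked. A match of letters is a description and not a binding site.
Id2 promoter (chr12:25096254-25096342, minus strand): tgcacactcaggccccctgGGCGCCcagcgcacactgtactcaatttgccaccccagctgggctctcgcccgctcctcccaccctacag
Id4 promoter (chr13:48260866-48261115, plus strand): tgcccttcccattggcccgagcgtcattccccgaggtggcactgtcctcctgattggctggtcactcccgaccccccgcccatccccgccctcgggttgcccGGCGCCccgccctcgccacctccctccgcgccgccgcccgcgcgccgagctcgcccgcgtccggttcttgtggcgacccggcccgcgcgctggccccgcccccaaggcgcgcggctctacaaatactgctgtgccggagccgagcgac

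The values are FPKM (fragments per kilobase of transcript, scaled to mapped fragments), as deposited, and the depth behind them is unknown. Nog itself, which checks the labels, ran from 0.871 to 1.97 FPKM in controls and from 2281 to 2734 FPKM with noggin. Total FPKM was 595736 to 669124 in controls and 1183210, 797168 and 1188190 in noggin replicates 1, 2 and 3. Noggin replicate 3 stood apart, with 542 of the 10644 tested genes listed at 0 against 19 to 34 in the other libraries. On the parietal marker list 2 of 8 fell, against 0.695% of tested genes: Hip1r, and Slc26a7 with an adjusted p just under the threshold. That count was 0 without any 1 control library, with the replicate block, without a filter and without the mean-variance trend. It was 5 with equal totals and without noggin replicate 2, where 7.7% and 7.75% of tested genes were called lower. Atp4a, the catalytic subunit of the proton pump, ran from 13385 to 16218 FPKM in controls and from 5433 to 7619 with noggin, and Atp4b, its other subunit, from 16877 to 21417 and from 21468 to 25184 FPKM; neither was called. Aqp4, a water channel, was at 13.3 to 27.6 FPKM in controls and at 3.33, 7.99 and 0.0815 FPKM in noggin replicates 1, 2 and 3. It was not called. Car2, on the same list, went the other way, at 1542 to 2021 FPKM in controls and 3454 to 3683 FPKM with noggin. It was not called either (log2 fold change 1.04, limma adjusted p = 0.0816). Of the 8, 5 were lower and 2 higher with noggin without overlap, against 38.3% of tested genes without overlap in either direction.

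All 4 Id transcripts read higher in every noggin library than in any control, and none passed the test. A gene was called when the Benjamini-Hochberg adjusted p of limma, on log2(FPKM + 1) over all 10644 tested genes, was under 0.05. All 4 Id genes passed the filter of at least 1 FPKM in 3 libraries. Of the 4, 0 were called, where 1.75% of tested genes were called higher, 0.695% lower and 2.44% in either direction. At an unadjusted limma p under 0.05 stood 2839 of the tested genes, Id1, Id2 and Id4 among them. Groups that do not overlap, with noggin higher, were found for 20.3% of tested genes (38.3% in either direction). The median log2 fold change was -0.033 over all tested genes, and 48.3% of them were positive. In sorted bulk cells a change in the mix of cells and a change in RNA per cell cannot be told apart.

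Id1, the member most often used as a BMP readout, was at 163, 105 and 96.0 FPKM in control replicates 1, 2 and 3, and at 432, 210 and 301 FPKM in noggin replicates 1, 2 and 3. The groups did not overlap, but control replicate 1 was well above the other controls and noggin replicate 2 well below the other noggin libraries. The means were 121 ± 36.6 and 314 ± 112 FPKM (SD, n = 3 each), 2.59-fold apart. The log2 fold change was 1.34 (SE 0.316, 95% interval 0.61 to 2.08, limma adjusted p = 0.0729), the largest of the 4. Over 17 alternatives it ran from 0.63 to 1.60, with adjusted p of 0.0244 to 0.336, and Id1 was called in 2 of them. One was the replicate block. The other left out noggin replicate 2, where the value was 1.60 (SE 0.292, limma adjusted p = 0.0244) and where 11.2% of tested genes were called higher and 7.75% lower. Leaving out any other library gave values from 1.08 to 1.58 and no call.

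Id2, which also binds retinoblastoma proteins, was the most abundant Id transcript of the controls. It was at 410, 522 and 433 FPKM in control replicates 1, 2 and 3, and at 826, 643 and 700 FPKM in noggin replicates 1, 2 and 3. It varied least within the noggin group, with an SD of 12.9% of the mean there and 13.1% in controls. The means were 455 ± 59.4 and 723 ± 93.3 FPKM (SD, n = 3 each), and the log2 fold change was 0.67 (SE 0.206, 95% interval 0.19 to 1.15, limma adjusted p = 0.111). It was called in 1 of 17 alternatives, without noggin replicate 2, at 0.75 (limma adjusted p = 0.0466), a setting that called 11.2% of tested genes higher. Its adjusted p reached 0.880 with equal totals.

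Id3, a close partner of Id1 in expression during development, was nearly the same in all controls, at 404, 381 and 386 FPKM. In noggin replicates 1, 2 and 3 it was at 1084, 494 and 470 FPKM. A single library carried most of the difference: replicate 1 was far above replicates 2 and 3, and the lowest noggin library was 1.16 times the highest control. The means were 391 ± 12.0 and 683 ± 348 FPKM (SD, n = 3 each), and the log2 fold change was 0.69 (SE 0.330, 95% interval -0.07 to 1.46, limma adjusted p = 0.221). Without noggin replicate 1 it was 0.30 (SE 0.133, limma adjusted p = 0.199).

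Id4, best known from neural and mammary progenitors, was the scarce member. It was at 7.66, 4.51 and 5.45 FPKM in control replicates 1, 2 and 3, and at 8.78, 13.2 and 17.7 FPKM in noggin replicates 1, 2 and 3. Its order among noggin libraries was the reverse of that of Id3, with replicate 1 lowest and replicate 3 highest. The means were 5.87 ± 1.62 and 13.2 ± 4.48 FPKM (SD, n = 3 each), and the log2 fold change was 1.03 (SE 0.342, 95% interval 0.23 to 1.82, limma adjusted p = 0.122). Without noggin replicate 3, the library that stood apart, the log2 fold changes of Id1, Id2, Id3 and Id4 were 1.34, 0.69, 0.91 and 0.80, and 0 of 4 were called. The deposited table has no row named for either noncoding gene that overlaps Id4.

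**Figure D1:**
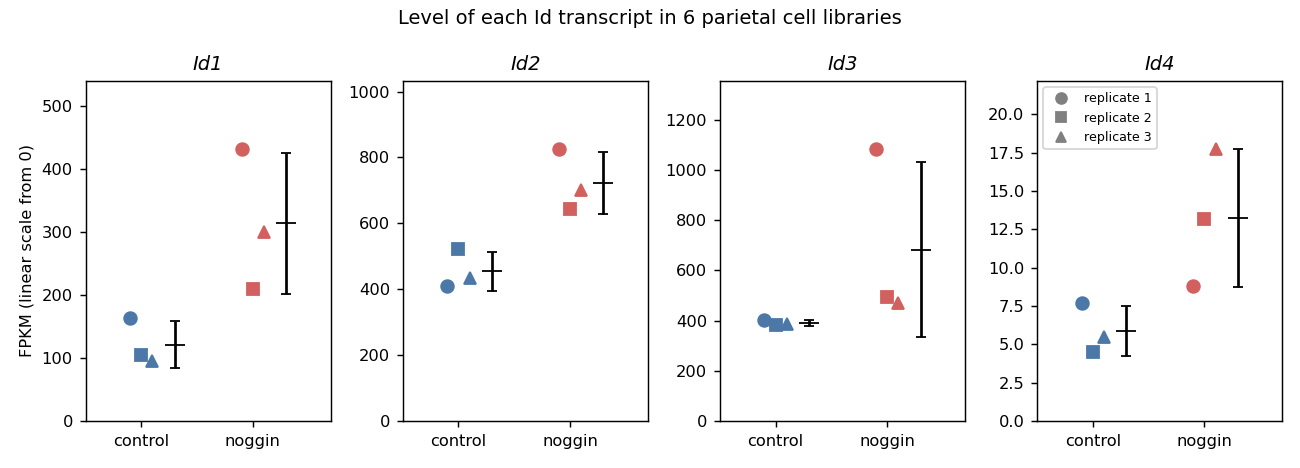
FPKM of each Id gene by group on linear axes that start at 0, with 1 symbol per library (its shape gives the replicate) and the mean ± SD of 3 libraries as a bar to the right. The noggin libraries lie above all controls for each gene, and replicate 1 of the noggin group (1084 FPKM) stands far from the others for Id3.

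By group mean the order of levels was Id2, Id3, Id1 and then Id4 in both groups. FPKM is scaled by transcript length, so levels of different genes can be set side by side. Id2 was above Id3 in all controls, but the log2 ratio of 0.21 ± 0.22 (SD, n = 3) was no larger than its spread, and in noggin libraries it was -0.39, 0.38 and 0.57. These neighbours did not differ beyond their spread. Id1 was below Id3 in all 6 libraries, by log2 ratios of -0.64 or lower, and above Id4 in all 6, by 3.89 to 5.47. Id1 made up 10.4% to 16.6% of the summed Id FPKM in controls and 15.4% to 20.2% in noggin libraries. Id4 made up at most 1.19%.

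A ratio of 2 genes within a library does not move with the scaling of that library, apart from the pseudocount, so the 6 ratios between Id genes were compared as well. The log2 ratio of Id1 to Id2 was -1.32, -2.30 and -2.16 in control replicates 1, 2 and 3 and -0.93, -1.61 and -1.22 in noggin replicates 1, 2 and 3. The groups overlapped through control replicate 1. The means differed by 0.68 (two-sided exact permutation p = 0.2, adjusted p = 0.6 over 6 ratios). For Id1 to Id3 the difference was 0.65 (exact permutation p = 0.2, adjusted p = 0.6), from -1.72 ± 0.37 to -1.07 ± 0.37 (SD, n = 3 each). The differences for the other 4 ratios ran from -0.36 to 0.32, with exact p-values of 0.4 to 0.9. The smallest p that 3 against 3 libraries can give is 0.1, and all 6 ratios overlapped between groups.

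Ranks within a library are also free of its scaling. Id1 ranked 485, 865 and 890 by FPKM among the tested genes in control replicates 1, 2 and 3 (1 is the highest), and 369, 489 and 429 in noggin replicates 1, 2 and 3. The ranks of Id1 overlapped, since control replicate 1 stood above noggin replicate 2. Id4 ranked 6018, 7414 and 7009 in controls and 5296, 4711 and 3952 in noggin libraries, with no overlap. On FPKM 38.3% of tested genes did not overlap in either direction, and the share for ranks was not computed. Id2 ranked 158 to 179 in controls and 151 to 211 in noggin libraries. Id3 ranked 187 to 233 and 155 to 278. The ranks of Id2 and Id3 overlapped, although their FPKM did not.

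**Figure D2:**
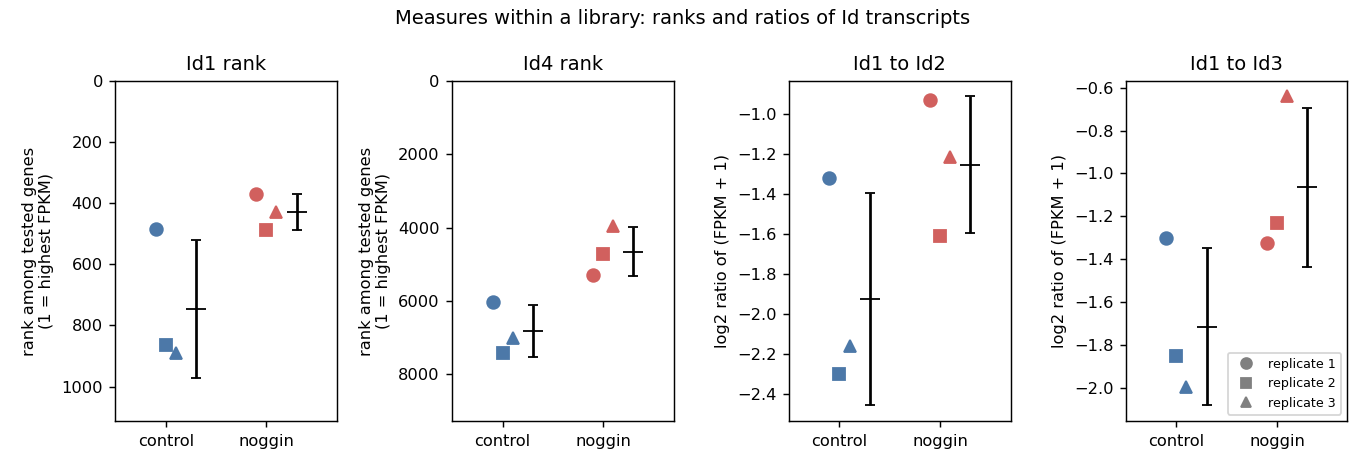
Measures that do not depend on how a library is scaled: the rank of Id1 and of Id4 by FPKM among 10644 tested genes (axis inverted, 1 is the highest) and the log2 ratios of Id1 to Id2 and Id1 to Id3, with 1 symbol per library and mean ± SD (n = 3) at the right. Id4 ranks do not overlap between groups, while control replicate 1 reaches into the noggin range for Id1 and its ratios. The share of all tested genes whose ranks do not overlap was not computed.

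Scaling decided the sign for Id2 and Id3 and not for Id1 and Id4. As parts per 1000000 of the library total, Id1 was at 258, 157 and 161 in control replicates 1, 2 and 3 and at 365, 263 and 253 in noggin replicates 1, 2 and 3, and the groups overlapped. On that scale Id2 had means of 718 ± 67.1 and 698 ± 109 parts, and Id3 of 619 ± 42.6 and 644 ± 261 parts (SD, n = 3 each). Rescaling to equal totals gave log2 fold changes of 0.63, -0.048, -0.023 and 0.39 for Id1, Id2, Id3 and Id4, while it moved the median of all tested genes to -0.63. Relative to that median all 4 were positive. A few genes weigh on the totals: Clps, a pancreatic colipase gene that the chief cell list holds, was at 22776 to 44841 FPKM in controls and 73512 to 244835 FPKM with noggin. Rescaling by the median ratio over genes, in which no gene weighs more than another, gave 1.26, 0.58, 0.61 and 0.95.

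Transcript length moved with the fold changes of all genes. Tested genes with transcripts of 1000 to 2000 bases, the class of Id1 (1047), Id2 (1270) and Id3 (1278), had a median log2 fold change of 0.22 (quartiles -0.20 and 0.60, 3054 genes). Those of 3000 bases or more, the class of Id4 (3849), had a median of -0.47 (quartiles -0.85 and -0.06, 2912 genes). With the trend on length removed, the log2 fold changes were 1.00 for Id1 (SE 0.291, limma adjusted p = 0.135), 0.38 for Id2 (SE 0.174, limma adjusted p = 0.279), 0.41 for Id3 (SE 0.280, limma adjusted p = 0.435) and 1.44 for Id4 (SE 0.358, limma adjusted p = 0.0979). Id4 then had the largest value in place of Id1. With lengths taken over all transcripts of a gene, the first definition run, the values were 1.20, 0.56, 0.54 and 1.47 for Id1, Id2, Id3 and Id4, and again 0 of 4 were called.

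**Figure D3:**
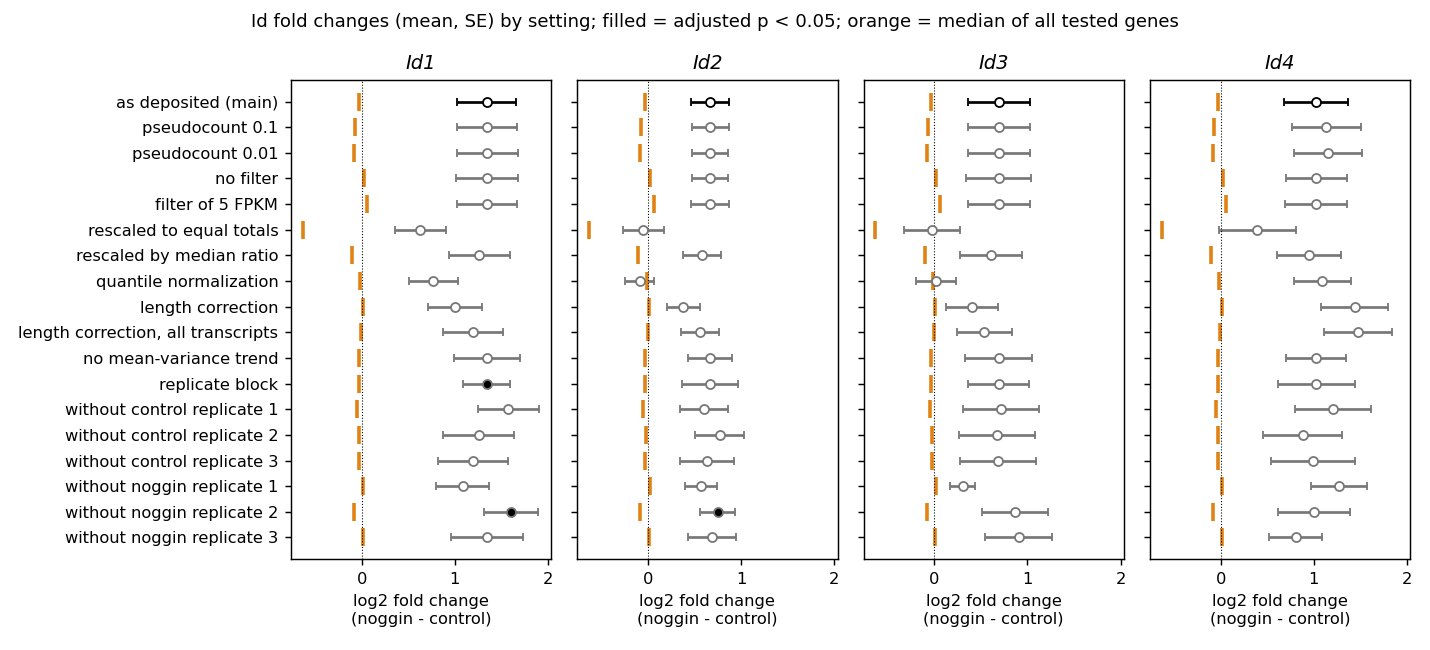
Log2 fold change (noggin minus control) of each Id gene with its SE, in 1 row per setting, with filled symbols where the limma adjusted p was under 0.05 and an orange mark at the median of all tested genes. Id1 and Id4 lie above 0 in every row, and Id2 and Id3 come to about 0 with equal totals and with quantile normalization.

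The Id genes did not follow one another closely across the 6 libraries. Likeness was measured as the root mean square difference of log2(FPKM + 1), each gene centred on its own mean, over 7222 other genes whose mean reached 5 FPKM. Nearest to Id1 were Capg, an actin capping protein (0.155), Phgr1 (0.163) and Cdc42ep5, an effector of the GTPase Cdc42 (0.169). Nearest to Id2 were Psma4, a proteasome subunit (0.0549), Atp6v0c-ps2, a pseudogene whose reads may belong to its parent gene (0.0561), and Ube2a, a ubiquitin-conjugating enzyme (0.0629). Nearest to Id3 were 2510002D24Rik (0.0578), Trappc6a, a subunit of a vesicle tethering complex (0.0711), and Ssu72, a phosphatase of RNA polymerase II (0.0729). Nearest to Id4 were Cpn1, a carboxypeptidase subunit (0.0836), Tmprss4, a membrane serine protease (0.115), and Entpd2, a nucleotidase (0.135). The closest pair within the family was Id2 and Id3, at 0.322, where Id2 ranked 745 in the order of likeness to Id3.

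The E proteins, the main partners that Id proteins hold back, gave lower summed levels than the Id transcripts, and 0 of 3 passed the test. Tcf3 was at 9.07 to 14.7 FPKM in controls and 6.52 to 11.7 FPKM with noggin, a log2 fold change of -0.27 (limma adjusted p = 0.599). The values of Tcf12 and Tcf4 were -0.28 (limma adjusted p = 0.635) and -0.15 (limma adjusted p = 0.816). The sum of the 3 E proteins was 24.7 to 27.3 FPKM in controls and 16.4 to 26.5 FPKM with noggin. The summed FPKM of the 4 Id genes was 36.1, 40.2 and 37.3 times that of the E proteins in control replicates 1, 2 and 3, and 144, 51.4 and 63.8 times in noggin replicates 1, 2 and 3. These sums describe transcripts, were not corrected for the trend on transcript length, and were not tested.

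Other bHLH factors were mostly too low to test. Of 24 listed, 5 passed the filter, 0 were called, and the median log2 fold change was 0.12. Hes6, which opposes Hes1 in neurogenesis, was at 27.3 to 31.3 FPKM in controls and 51.2 to 71.0 FPKM with noggin (log2 fold change 0.94, SE 0.204, limma adjusted p = 0.0628). It was called higher without noggin replicate 2 (1.01, limma adjusted p = 0.0297) and without noggin replicate 3 (1.02, limma adjusted p = 0.0462), settings in which 11.2% and 2.92% of tested genes were called higher. Hes1, a repressor induced by Notch, was at 54.1 to 101 and 106 to 165 FPKM (log2 fold change 0.85, limma adjusted p = 0.120). Bhlha15, a factor of secretory cells, was at -0.70 (limma adjusted p = 0.454) and was 0.107 FPKM in noggin replicate 3 against 2.82 or more in the other libraries.

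Among genes that carry the BMP signal to Id promoters, 1 of 9 tested fell, 0 rose and 8 did not pass, with a list median of -0.22. Over all tested genes 0.695% were called lower and 1.75% higher. Bmpr1b, a type I BMP receptor, was at 7.22, 9.57 and 9.13 FPKM in control replicates 1, 2 and 3 and 1.07, 2.13 and 2.21 FPKM in noggin replicates 1, 2 and 3, with no overlap. It fell by 1.80 on the log2 scale (SE 0.322, limma adjusted p = 0.0429). It was called in 7 of 17 alternatives, with values of -2.35 to -1.49 and adjusted p of 0.0227 to 0.259. The call ended without any 1 control library (-1.91, -1.73 and -1.76 without control replicates 1, 2 and 3) and without noggin replicate 1 (-1.60). It also ended with either smaller pseudocount, without a filter, with either length correction and with the replicate block. The activin type II receptor Acvr2a was at -0.88 (limma adjusted p = 0.262), and Smad9 at -0.44 (limma adjusted p = 0.354). The signal Smads were expressed in both groups: Smad1 was at 17.2 to 21.6 FPKM in controls and 10.6 to 26.8 in noggin libraries, and Smad4 at 16.3 to 18.7 and 11.1 to 36.2 FPKM.

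Other genes known to be induced by BMP Smads were called in neither direction. Of 9 listed, 5 passed the filter, 0 were called, 1 was positive (Hes1) and the median log2 fold change was -0.16. Smad7, an inhibitory Smad that blocks receptor signalling, was at 13.3, 12.3 and 14.3 FPKM in control replicates 1, 2 and 3, and at 10.1, 7.32 and 5.78 FPKM in noggin replicates 1, 2 and 3. Its groups did not overlap, with noggin lower, and the log2 fold change was -0.74 (SE 0.281, limma adjusted p = 0.150). With equal totals it was called lower, at -1.39 (limma adjusted p = 0.0467), as were 7.7% of tested genes. Smad6, the other inhibitory Smad on the list, was at 24.3 to 34.3 FPKM in controls and 12.0 to 42.6 FPKM with noggin. Its groups overlapped (log2 fold change -0.16, limma adjusted p = 0.834). Whether the Id genes and Smad7 differed from each other was not tested.

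**Figure D4:**
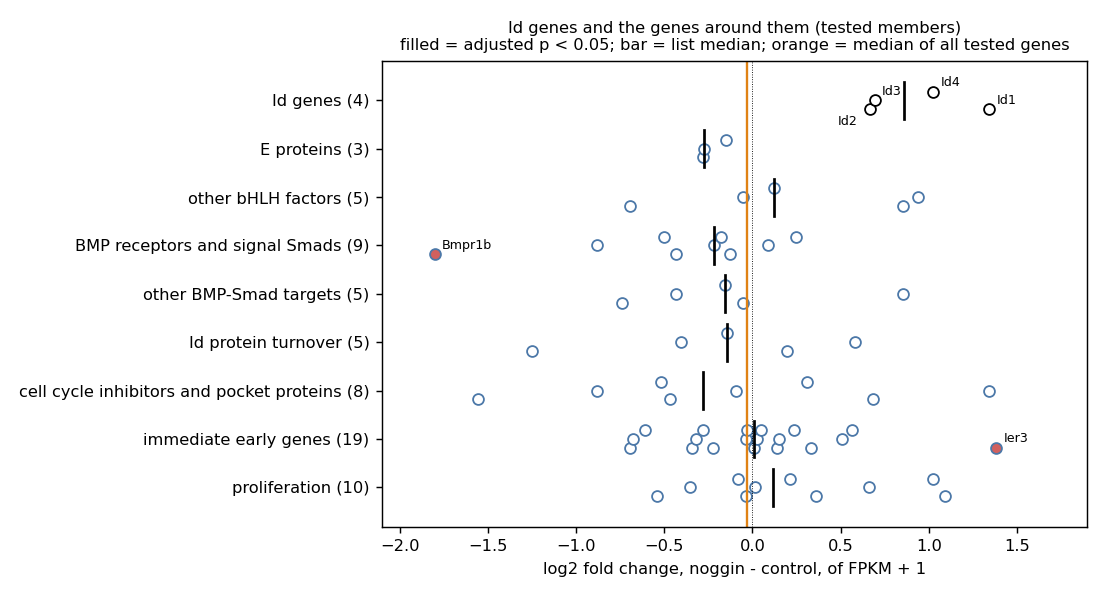
Log2 fold change (noggin minus control, FPKM + 1) of the tested members of the Id genes and the 8 pathway lists, with the Id genes in the top row, filled symbols for genes with a limma adjusted p under 0.05, a black bar at each list median and an orange line at the median of all tested genes. The 4 Id genes lie between 0.67 and 1.34, the 3 E proteins lie below 0, and each of the other 7 pathway lists has members on both sides of 0.

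Genes that act on the stability of Id proteins were called in neither direction (0 of 5, median -0.14). Usp1, a deubiquitinase that protects Id proteins from degradation, was at 7.96 to 8.71 FPKM in controls and at 2.16, 6.12 and 1.73 FPKM in noggin replicates 1, 2 and 3. Its log2 fold change was -1.25 (SE 0.412, limma adjusted p = 0.121), and without noggin replicate 2 it was called lower at -1.68 (limma adjusted p = 0.0210), as were 7.75% of tested genes. Cops5, a subunit of the COP9 signalosome, was at 0.58 (limma adjusted p = 0.128), and Smurf2, a ubiquitin ligase, at -0.40 (limma adjusted p = 0.379).

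Cell cycle inhibitors and pocket proteins, which E proteins induce or Id2 binds, gave 0 of 8 called and a median of -0.28. Cdkn1c, a cyclin-dependent kinase inhibitor, was at 33.8, 19.8 and 15.0 FPKM in controls and at 47.4, 51.0 and 74.2 FPKM with noggin (log2 fold change 1.34, SE 0.325, limma adjusted p = 0.0762). Rb1, the retinoblastoma protein, was at 5.39 to 6.10 and 0.330 to 3.13 FPKM (log2 fold change -1.56, SE 0.440, limma adjusted p = 0.0976), and was called lower with equal totals (-2.02, limma adjusted p = 0.0423) and without noggin replicate 2 (-1.98, limma adjusted p = 0.0219), where 7.7% and 7.75% of tested genes were called lower. Its relative Rbl2 was at -0.88 (limma adjusted p = 0.199). Proliferation genes gave 0 of 10 called, with a median of 0.12. Birc5, Cdk1 and Ccnb1, genes of dividing cells, were at 1.02 (limma adjusted p = 0.101), 1.09 (limma adjusted p = 0.173) and 0.66 (limma adjusted p = 0.360).

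Immediate early genes, like Id1 and Id3, respond within minutes to serum and to tissue handling. Of 19 listed, 1 rose and 0 fell, against 1.75% and 0.695% of tested genes. The median log2 fold change of the 19 was 0.0074, and 10 were positive. Ier3, a stress-induced survival gene, was at 13.5 to 14.8 FPKM in controls and 30.7 to 46.0 FPKM with noggin and rose by 1.38 on the log2 scale (SE 0.223, limma adjusted p = 0.0330). It was called in 7 of 17 alternatives, with values of 0.70 to 1.54 and adjusted p of 0.0162 to 0.219, the lowest value with equal totals. The call ended without any 1 control library (1.41, 1.38 and 1.36 without control replicates 1, 2 and 3) and without noggin replicate 1 (1.35). It also ended without a filter, with equal totals, with either length correction, without the mean-variance trend and with the replicate block. Jun was at -0.67 (limma adjusted p = 0.137) and was called lower with equal totals (-1.39, limma adjusted p = 0.0351) and quantile normalization (-1.28, limma adjusted p = 0.0450), where 7.7% and 2.17% of tested genes were called lower. Ier2 was at 0.57 (limma adjusted p = 0.257).

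Marker lists of other cells differed in what they showed. Summed levels did not overlap between groups, with noggin higher, for mucous neck, leukocyte, mast and chief cell markers, and overlapped for pit, enteroendocrine, endothelial and stromal markers. Mucous neck cell markers summed to 2456 to 3362 FPKM in controls and to 25864, 10765 and 13025 FPKM in noggin replicates 1, 2 and 3. Of 5 members 5 rose, against 1.75% of tested genes. That count was 0 without any 1 control library, without noggin replicate 1 and without a filter, 1 with median-ratio scaling, with either smaller pseudocount and without the mean-variance trend, 2 with equal totals, and 3 to 5 in the other alternatives. On FPKM, mucous neck, mast and pit cell sums were highest in noggin replicate 1 and lowest in noggin replicate 2 among the noggin libraries. Id1 and Id2 had the same order on FPKM, and Id3 and Id4 had other orders. Noggin replicate 2 also had the lowest total FPKM of the noggin libraries. As a share of the library total, Id1 was lowest in noggin replicate 3 and Id2 was highest in noggin replicate 2. By rank, Id1 kept its FPKM order and Id2 was highest in noggin replicate 2. The marker sums were not rescaled. Pit cell markers summed to 21882 to 26168 FPKM in controls and 49631, 23002 and 41072 FPKM with noggin, with 0 of 5 called. Muc5ac, a mucin on that list, was lower without overlap, at 45.2 to 80.3 FPKM in controls and 21.6 to 27.5 FPKM with noggin. The other pit members overlapped, where 38.3% of tested genes did not. Leukocyte markers summed to 6.57 to 9.04 FPKM and to 35.2, 56.9 and 277 FPKM. Of 4 tested, 1 was called higher (0 to 3 over the alternatives), against 1.75% of tested genes. Of the 9 listed, 6 were higher in every noggin library than in any control, against 20.3% of tested genes. That count includes genes below the filter, such as Lyz2, at 0.941 FPKM in the lowest noggin library and 0.720 FPKM in the highest control. Cd74, which led the list, was at 4.14 to 6.64 FPKM in controls and at 8.78, 36.8 and 182 FPKM in noggin replicates 1, 2 and 3. Mast cell markers summed to 37.2 to 61.7 FPKM and to 275, 180 and 194 FPKM. Of the 6, 5 were called higher and 1 lower, against 1.75% and 0.695% of tested genes. The counts were 1 higher and 0 lower without a filter, without control replicate 1 or without control replicate 3. Without noggin replicate 1, 2 were called higher. Kit was the member called lower, and it made up the larger part of each control sum. It was at 32.4, 37.6 and 43.2 FPKM in control replicates 1, 2 and 3. In noggin replicates 1, 2 and 3 it was at 6.59, 10.3 and 9.47 FPKM. The sum therefore mixes members that moved in opposite directions. Chief cell markers summed to 60942 to 112019 FPKM and to 212094, 131323 and 357848 FPKM, with 0 of 6 called. Clps, at 168951, 73512 and 244835 FPKM in noggin replicates 1, 2 and 3, made up the larger part of each noggin sum. Pgc, the other abundant member, overlapped, at 37488 to 66218 FPKM in controls and 42138 to 110445 FPKM with noggin. Of the 6, 2 were higher with noggin without overlap, against 20.3% of tested genes. Enteroendocrine markers summed to 443 to 2695 FPKM and to 1902, 28644 and 21259 FPKM. Of the 7, 2 were called higher, against 1.75% of tested genes. That count was 0 to 3 over the alternatives, and 0 without a filter and without control replicate 1 or 3. Gast was at 203, 387 and 2226 FPKM in control replicates 1, 2 and 3. At 22.3, 26026 and 14693 FPKM in noggin replicates 1, 2 and 3, it made up the larger part of the last 2 sums. Of the 7, 3 were higher with noggin without overlap, against 20.3% of tested genes. Ghrl, 1 of these, was at 99.5 to 171 FPKM in controls and 1358 to 4464 FPKM with noggin. The part of these cells in the Id values was not tested.

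Endothelial cells are known to express Id1 and Id3 strongly, so their markers were read as well. Cdh5, a defining endothelial cadherin, was listed at 0 in all 6 libraries, and Kdr and Tek were at or below 0.0512 FPKM in each. Of 10 endothelial markers, 3 passed the filter, Plvap, Egfl7 and Esam, and 0 were called. Egfl7 was at 5.79 to 8.82 FPKM in controls and 5.80 to 10.3 FPKM with noggin. Esam was at 3.49 to 5.38 FPKM in controls and at 2.80, 3.86 and 0 FPKM in noggin replicates 1, 2 and 3. The 10 markers summed to 33.6 to 38.4 FPKM in controls and 32.7 to 48.1 FPKM with noggin, and the groups overlapped. Most of the sum was Plvap (22.0 to 34.4 FPKM over all libraries). Pecam1 was at 5.70 FPKM in noggin replicate 3 and at or below 0.383 FPKM elsewhere. Of 9 stromal markers 1 was tested and it was not called, and their sum was 0.921 to 1.57 FPKM in controls and 1.03 to 1.91 FPKM with noggin.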

How the data were processed

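Per the labels' protocols, mRNA libraries (SMART-Seq Ultra Low Input, Takara) were sequenced from 1 end for 50 bases. The authors deposited FPKM per gene and library. The submitters' processing notes name mm10, bcl2fastq and FastQC 0.10.0, and name no aligner, quantifier or annotation. Groups came from the sample titles.

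Values were transformed to log2(FPKM + 1), which understates changes of low genes. The filter kept 10644 genes that reached 1 FPKM in 3 or more libraries. They were tested with limma 3.58.1 in R 4.3.3 (mean-variance trend, group as the only term, two-sided, Benjamini-Hochberg over all tested genes). Every adjusted p of a gene is from this test unless another setting is named. Ratios were compared by exact permutation.

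Lengths are medians over protein-coding transcripts of GENCODE M21, and 99.0% of tested genes had one. A median over all transcripts was run first and replaced after its results had been seen, and both are reported. The length correction removed a loess trend (span 0.5). The members, gene lists and alternatives were chosen with earlier results of these data known. Named were the Id genes, Nog, and in each pathway list the called members and then those of lowest p, up to 3. From each marker list at most the 2 most abundant were to be named. Cdh5, Kdr, Tek, Pecam1, Esam, Hip1r, Slc26a7, Aqp4, Car2, Kit, Muc5ac, Smad1, Smad4 and Smad6 were chosen after their values were seen. The other settings of the list genes and marker lists were added after seeing the data.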

Additional observations from a re-analysis of the deposited data

How the results depend on the processing

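The number of genes called higher and lower was 186 and 74. It was 85 and 26 with a pseudocount of 0.1, 72 and 21 with 0.01, 8 and 4 without a filter, 80 and 35 with the length correction (123 and 56 with lengths over all transcripts), and 66 and 17 without the mean-variance trend. The number called lower was 820 with equal totals (130 higher), 231 with quantile normalization (243 higher) and 32 with the replicate block. Without 1 library each, 4 to 1187 were higher and 5 to 825 lower. Over 17 alternatives Id1 and Id4 stayed positive, at 0.63 to 1.60 and 0.39 to 1.47. Id2 turned to -0.048 with equal totals and -0.089 with quantile normalization, and Id3 to -0.023 with equal totals. Without 1 library each, Id1 was at 1.08 to 1.60, Id2 at 0.57 to 0.77, Id3 at 0.30 to 0.91 and Id4 at 0.80 to 1.27. The log2 ratio of Id1 to Id4 turned to -0.43 with the length correction and -0.28 with lengths over all transcripts, where that of Id2 to Id3 turned to 0.017. Without 1 library each it ran from -0.19 to 0.60, that of Id2 to Id3 from -0.22 to 0.27, and that of Id3 to Id4 from -0.97 to 0.10. Cops5 turned to -0.12 with equal totals, Ier2 to -0.15 with equal totals and -0.16 with quantile normalization, Smad9 to 0.021 with quantile normalization, 0.086 with the length correction and 0.14 with lengths over all transcripts, Tcf3 to 0.042 with the latter, and Tcf4 to 0.045 without noggin replicate 1 (-0.47 at the lowest without 1 library). The causes were not tested, and the unknown depth limits all of these values.

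Same-numbered libraries showed no common deviation, with correlations across genes of 0.105, -0.141 and 0.0052. Libraries of different numbers gave -0.129 to 0.120. These few values cannot exclude a pairing, which the sources used here do not state, so whether the numbers pair libraries is unknown. With the replicate block Id1 was called, at 1.34 (SE 0.251, limma adjusted p = 0.0413), and the other 3 Id genes were not.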
